A study of Drosophila melanogaster with 2 samples.

Results

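The Antennapedia complex locus was taken as 3R from 2450001 to 2850000 in dm3 coordinates, on both homologs. Its members are 400 bins of 1 kb per homolog, of 119032 such bins on the 5 large chromosome arms and 27906 on 3R. The interval was given by position alone and its rule used no contact value, but it was chosen with earlier results of these data known. The flanks of 300 kb on either side, and 62 other windows of 400 kb laid end to end along 3R, served as background. The Hi-C libraries came from whole F1 hybrid embryos of Drosophila melanogaster collected at 2 to 4 h from a cross of DGRP-057 females with DGRP-439 males, in 2 replicates with 24390496 and 24659056 read pairs. Each embryo carries 1 maternal (057) and 1 paternal (439) homolog, so the single nucleotide variants between the lines tell the homologs apart. There is 1 condition, and each library pools all cell types of many embryos, so a value is an average over nuclei with and without paired homologs. Contacts within 1 homolog are called cis, and contacts between the maternal and the paternal homolog are called trans-homolog.

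The Antennapedia complex is a cluster of Hox genes, which give the segments of the head and anterior thorax their identity, and the bithorax complex on the same arm does so for the posterior thorax and abdomen. In the fly embryo, large regulatory domains of these clusters are separated by boundary elements, and Polycomb proteins keep the genes silent outside their segments. Pairing of homologs was studied early at Hox genes through transvection, in which a regulatory element on 1 homolog acts on the gene on the other. In the RefSeq annotation, all 15 genes listed for the 2 complexes were found, with 12 in the Antennapedia complex in the order lab, pb, zen2, zen, bcd, Ama, mir-993, Dfd, mir-10, Scr, ftz and Antp. Of these, lab, pb, Dfd, Scr and Antp are Hox genes, bcd encodes the maternal morphogen of the anterior pole, zen acts in dorsal tissue, ftz is a pair-rule gene, and mir-10 and mir-993 are microRNAs. The annotation belongs to a later assembly than the contacts, so the order of genes is given and no boundary is placed at a gene.

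Of the read ends in the locus with a partner at 3 kb or more, or on another chromosome arm, 56.1% in replicate 1 and 55.8% in replicate 2 had their partner in the locus on the same homolog. The median of the 62 windows was 48.7%, and 3 windows lay above the locus. The flanks held 7.10% ± 0.29 of the partners (SD, n = 2), and the rest of the same arm held 10.8% ± 0.31. This last share was lower than in all 62 windows, whose values ran between 12.2% and 25.1%. It was also below the window median of 18.2% in the windows just left and right of the locus, at 13.4% and 16.4%. The lowest window, from 25650001, lies near the other end of 3R, and the part of arm position was not tested. The matching interval of the other homolog held 5.38% of the partners in replicate 1 and 4.94% in replicate 2, above all 62 windows of the same replicate, with a median of 2.50% over the windows in both replicates. The locus thus had more of its contacts at home, on either homolog, and fewer along its arm.

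Cis contacts were set against the mean of 3R at the same separation in maps of 1 kb bins. At 3 to 10 kb the locus had 1.27 times the expected contacts in replicate 1 and 1.21 times in replicate 2, and at 10 to 30 kb 1.18 times in each. At 30 to 100 kb the ratio was 0.952 ± 0.024, and at 100 to 400 kb 0.826 ± 0.058 (SD, n = 2). In both replicates together 7 of the 62 windows lay above the locus at 3 to 10 kb, 9 at 10 to 30 kb, 43 at 30 to 100 kb and 36 at 100 to 400 kb. The locus was therefore among the higher windows only at short separations, and without correction of the maps its ratios there were below 1, at 0.850 and 0.833.

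The insulation score is the log2 of observed over expected contacts across a bin, so a minimum marks a place that few contacts cross. In the 4 kb map, with a window of 10 bins, 5 cis boundaries lay in the locus, while 4.58% of the 6305 scored bins of 3R were boundaries. They lay at 2484001 to 2488000, 2584001 to 2588000, 2644001 to 2648000, 2736001 to 2740000 and 2796001 to 2800000. Their prominence, the depth of the minimum on the log2 scale, was 1.69, 1.13, 1.23, 1.22 and 0.70 in this order. The median window had 4 such boundaries and 13 windows had more than 5. All 5 were found within 4 kb in both replicates, except the first, which lay 12 kb away in replicate 2, and the last was found in the paternal but not in the maternal map.

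**Figure D1:**
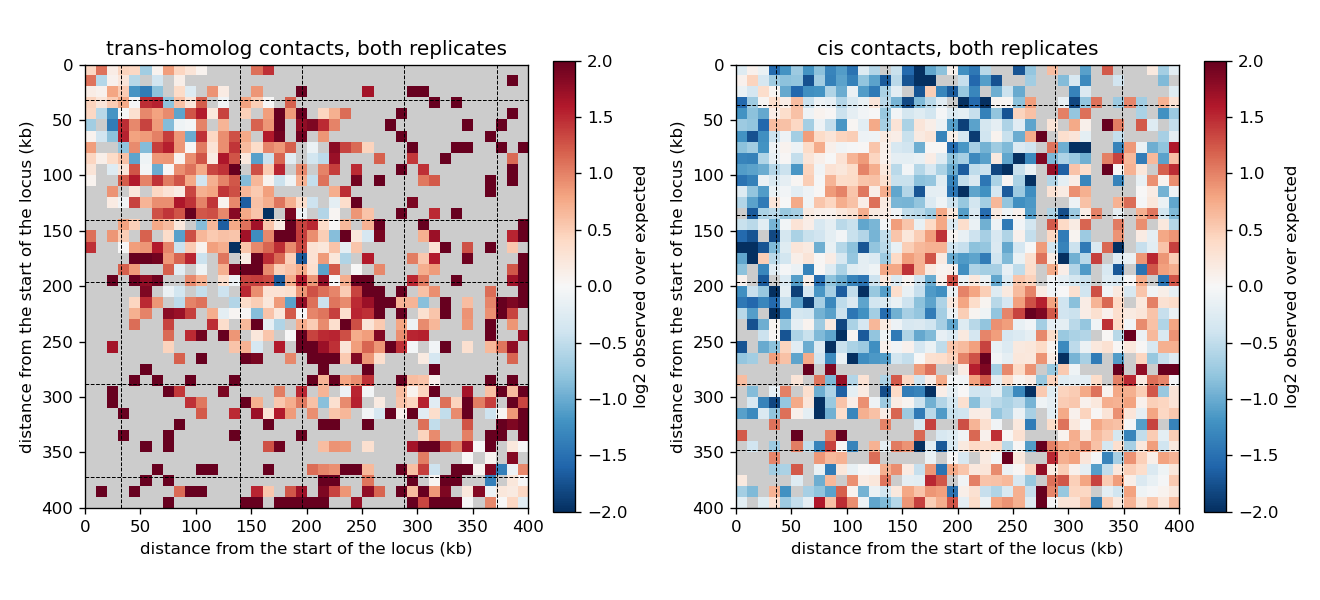
Observed over expected contacts of the locus in pixels of 10 kb on a log2 colour scale, for trans-homolog contacts (left) and cis contacts (right) with both replicates pooled. Both axes give the distance from the start of the locus in kb. Dashed lines are the boundaries called in 4 kb bins, grey pixels held no pair or were masked, and expected values are those of each kind of contact, so colours compare places and not the 2 panels. Many dark red trans-homolog pixels far from the diagonal hold few pairs.

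In 1 kb bins with a window of 20 kb, 5 cis boundaries were called, or 1.95% of the 257 scored bins of the locus, while 1.62% of the 14464 scored bins of 3R were called. They lay at 2471001 to 2472000, 2534001 to 2535000, 2648001 to 2649000, 2675001 to 2676000 and 2699001 to 2700000. The boundary at 2471001 had the largest prominence of the 5, 1.70, and ranked 18 of the 235 on 3R. Its insulation score was -0.83 in replicate 1 and -0.88 in replicate 2. The boundary at 2675001 had a prominence of 1.04, that at 2699001 0.92, that at 2534001 0.66 and that at 2648001 0.42. The value of 0.92 is not a depth within the locus alone. Its right side was read across bins without a score to the right flank, where the highest score was 0.86. The last scored bin of the locus stood at 0.35, and the 2699001 minimum itself at -0.07. The first, the 2534001 and the 2699001 boundaries were found within 4 kb in both replicates, the 2648001 boundary in replicate 1 and the 2675001 boundary in replicate 2. The maternal map held all but the 2699001 boundary, and the paternal map all but the 2648001 boundary.

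This count rests on how sparse bins were masked, which was settled after the data were seen, to let the correction converge. A minimum of 20 read ends per bin gave the 5 boundaries, a minimum of 10 gave 8, keeping minima next to masked bins gave 9, both changes together gave 10, and no minimum, under which the correction did not converge, gave 18. These are all the maskings that were tried. The 2586001 minimum appeared in all 4 of the other maskings, and the 2642001 minimum in 3 of them. Each lies within 4 kb of a boundary of the 4 kb map. With the minimum of 20, the 2642001 bin had the lowest 1 kb score of the locus, -0.87. It was not among the 5 boundaries because it lies next to a masked bin. From 2700001 to 2750000 only 30 of 50 bins were visible on either homolog, against 46 of 50 from 2650001 to 2700000, and with the minimum of 20 no 1 kb boundary was called beyond 2700000. A minimum of 10 placed the last boundary at 2701001, and only the map with no minimum had minima farther right, among them 1 at 2736001.

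**Figure D2:**
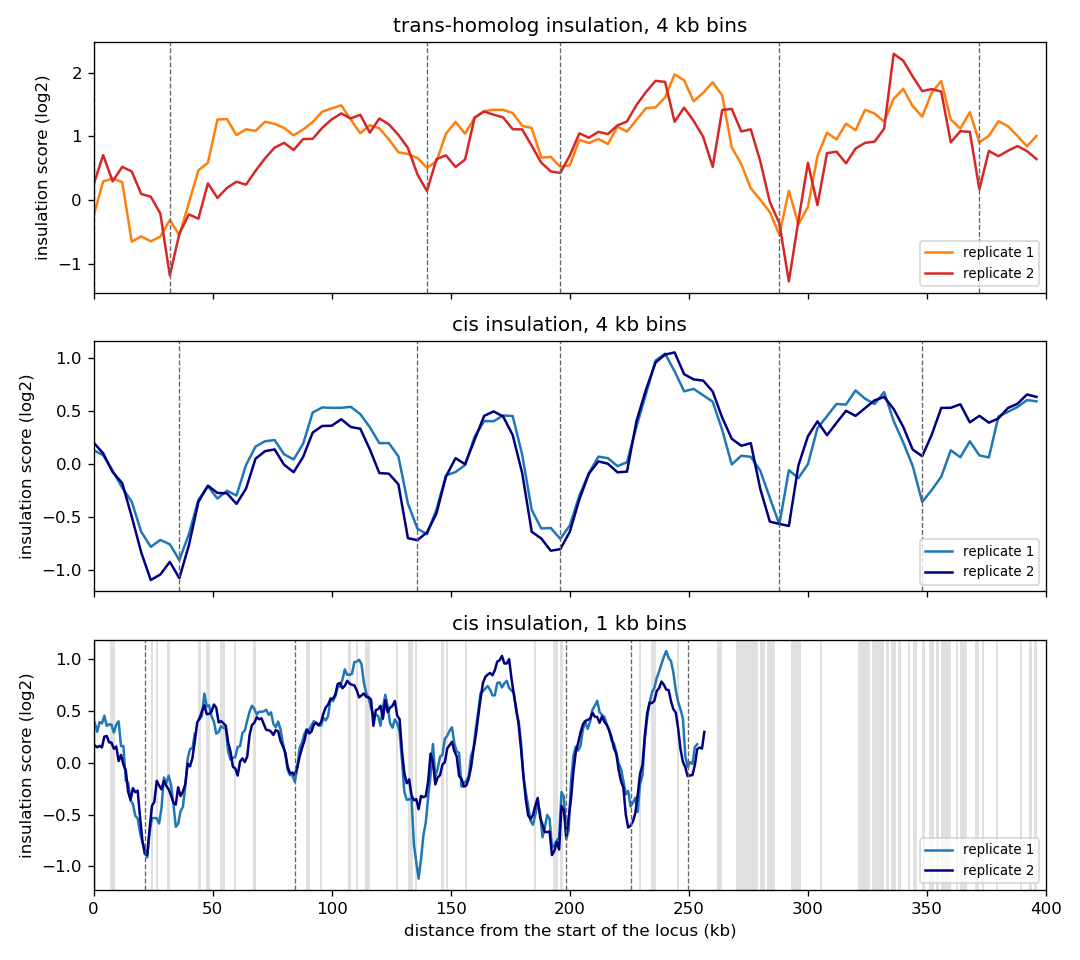
Insulation score (log2) along the locus by replicate, for trans-homolog contacts in 4 kb bins (top), cis contacts in 4 kb bins (middle) and cis contacts in 1 kb bins (bottom). The horizontal axis gives the distance from the start of the locus in kb, dashed lines are boundaries called with both replicates pooled, and grey bands in the bottom panel are bins masked on both homologs. In the cis panels the 2 replicates share most of their main minima, and the 1 kb score ends where masked bins become frequent. In the trans-homolog panel the deepest minima of replicate 2 differ from replicate 1. They are -1.19 at 32 kb and -1.28 at 292 kb, where replicate 1 has -0.31 and 0.14.

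The 4 kb boundaries set 5 domains of 100, 60, 92, 60 and 108 kb, the last of which ends beyond the locus. The part of the locus left of the 2484001 boundary belongs to none of these domains. Cis contacts inside them were 1.27 ± 0.042, 1.37 ± 0.0074, 1.58 ± 0.079, 1.53 ± 0.057 and 1.35 ± 0.00012 times the expected (SD, n = 2). Between neighbours they were 0.725 ± 0.018 for domains 1 and 2, 0.689 ± 0.030 for domains 2 and 3 and 0.778 ± 0.10 for domains 3 and 4. Domains 1 to 4 were therefore denser inside than across these 3 boundaries, by far more than the replicates differed. Since the boundaries were drawn on the same contacts, this is a description. Domains 4 and 5, across the 2796001 boundary, reached 1.09 ± 0.071.

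Domain 5 also had raised contacts with domains that do not touch it. With domain 2 the ratio was 1.45 in replicate 1 and 1.41 in replicate 2, from 81 and 99 pairs. With domain 3 it was 1.2 in replicate 1 and 1.54 in replicate 2, from 170 and 208 pairs. Domain 4, which lies between, had 0.682 ± 0.125 with domain 2 and, as given above, less than expected with domain 3. Domain 1 had 0.971 ± 0.077 with domain 5 and 0.723 ± 0.028 with domain 3 (SD, n = 2). Contacts between domains were thus uneven, low from domain 1 to domain 3 and above expected between domain 5 and domains 2 and 3. Only 52 kb of the 108 kb of domain 5 lie in the locus, and contacts of that part were not counted alone.

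Pixels of 5 kb at 20 to 400 kb were called raised when they held at least 10 pairs and at least 2 times the expected contacts in each replicate. In the locus 22 of 2853 pixels were called, or 0.771%, and on 3R 0.479% of 364655 were called. The pixel with the highest ratio joined 2670001 to 2675000 with 2715001 to 2720000, 45 kb apart, and held 7.46 times the expected contacts in replicate 1 and 7.65 times in replicate 2, from 56 pairs. It ranked 12 of the 1745 called pixels of 3R. The maternal homolog gave 34 of these pairs and the paternal homolog 22, and 6 trans-homolog pairs joined the same bins. The next 3 pixels by ratio all start in the neighbouring bin at 2675001, with 6.53 and 5.94 times the expected contacts at 2715001, 4.13 and 3.78 times at 2710001 and 4.22 and 3.82 times at 2695001 in replicates 1 and 2.

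These 4 pixels lie around the 1 kb boundaries at 2675001 and 2699001, and all of them fall in domain 3. Of the 22 pixels, 14 had both bins between 2655001 and 2720000, an interval picked after their positions were seen, so most of the called pixels of the locus lay there. The fifth pixel joined 2605001 to 2610000 with 2630001 to 2635000 in domain 2, at 3.63 times the expected contacts in replicate 1 and 3.46 times in replicate 2, from 85 pairs. All 5 were above expected on each homolog, between 3.91 and 8.95 times on the maternal homolog and between 3.17 and 6.21 times on the paternal homolog.

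Trans-homolog pairs with both ends in the locus and 3 to 100 kb apart numbered 677 in replicate 1 and 711 in replicate 2, against 7290 and 8497 cis pairs. The trans-homolog over cis share was 9.29% in replicate 1 and 8.37% in replicate 2. The median of the windows was 5.27% in replicate 1 and 4.59% in replicate 2, and 2 of 62 windows were higher than the locus in each. A cis pair whose end is assigned to the wrong homolog counts as trans-homolog, and inward pairs at 300 to 600 bp estimate how often this happens. That share was 0.128% in replicate 1 and 0.160% in replicate 2, with 49 of 62 windows above the locus in both replicates together. Subtracting such pairs at this local rate left 8.65%.

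The pairing score is the log2 of the mean corrected trans-homolog contact frequency among bins within 3 bins of 4 kb. The median over the locus was -8.81 in replicate 1 and -9.01 in replicate 2, against medians of -9.82 and -10.05 over 3R. The locus stood 1.02 ± 0.018 (SD, n = 2) above 3R on the log2 scale and above all 62 windows in each replicate. The window nearest to it reached 0.84 in replicate 1 and 0.98 in replicate 2, so in replicate 2 the lead was small. With uncorrected counts the locus stood 0.74 above 3R and 12 windows were higher, and with a mapping quality of 30 or more it stood 1.12 above 3R and 2 of 61 windows were higher. Of its 100 bins, 94 lay above the median of 3R and 45 above the 90th percentile, a level that 10.0% of the bins of 3R exceed.

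**Figure D3:**
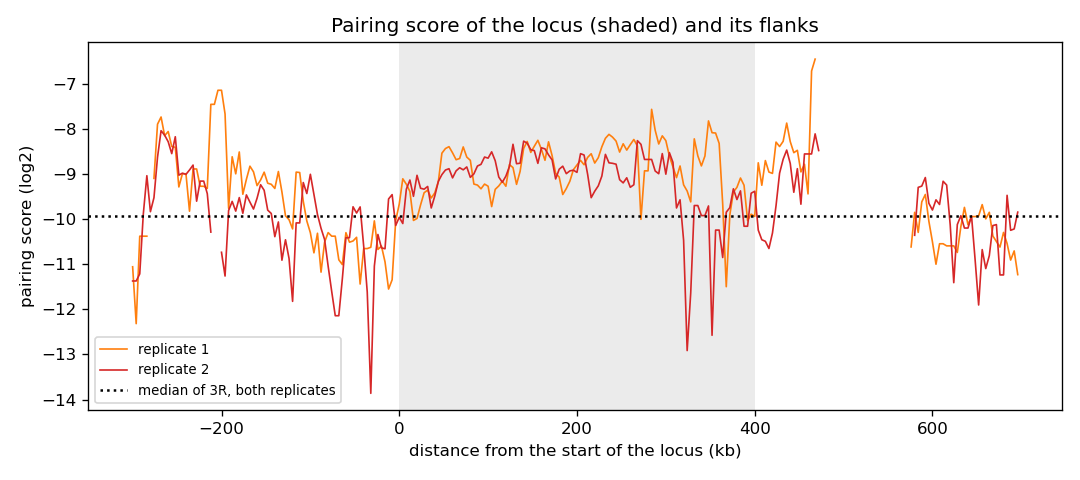
Pairing score (log2) in 4 kb bins against distance from the start of the locus in kb, by replicate, for the locus (shaded) and its flanks. The dotted line is the median of 3R with both replicates pooled, -9.92, and gaps are bins without a score. Most of the shaded interval lies above the line in both replicates, and the dips near its right end differ between them. Over the 100 bins of the locus the Spearman rank correlation between the replicates was only 0.28.

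With both replicates pooled, the flanks had medians of -9.64 on the left and -9.92 on the right, the level of 3R itself, and the bithorax interval had -9.43. Within the locus, domain 2 had a median of -8.56 in replicate 1 and -8.64 in replicate 2. Domain 3 had -8.50 and -8.88, domain 1 had -9.17 and -8.90 and domain 4 had -8.72 and -9.70. Domain 5, which runs on past the locus, had -8.96 and -9.73. The replicates differed by up to 0.99 in domain 4, so all 5 stood above the medians of 3R in both replicates and the order among the domains is not settled. In the pooled map the highest bin was 2732001 to 2736000, at -7.57 in replicate 1 and -8.68 in replicate 2. The lowest in the pooled map was 2772001 to 2776000, at -9.38 in replicate 1, above the median of 3R, and -12.91 in replicate 2. The replicates did not share these extremes, since the lowest bin of replicate 1 reached -11.50 and the highest bin of replicate 2 reached -8.27.

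Trans-homolog boundaries in 4 kb bins numbered 6 in the locus, while 8.57% of the 6304 scored bins of 3R were boundaries. With both replicates pooled the window median was 8, and 52 of 62 windows had more than the locus. Single replicates did not share this low rank. Replicate 1 had 9 boundaries with 36 windows above it, and replicate 2 had 8 with 38 above it. The 6 boundaries of the pooled map lay at 2448001 to 2452000, across the start of the locus, and at bins starting at 2480001, 2588001, 2644001, 2736001 and 2820001. Of these, 4 lay within 4 bins of a cis boundary of the 4 kb map, the tolerance also used for 3R. This is 66.7% of the trans-homolog boundaries of the locus and 80% of its cis boundaries, against 55.4% and 87.9% on 3R. The trans-homolog map at the 2736001 and 2480001 boundaries had its largest prominences of the locus, 2.17 and 2.10, but the 2480001 boundary lay 16 kb away in replicate 1.

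Maternal cis pairs numbered 3836 in replicate 1 and 4548 in replicate 2, and paternal cis pairs 4120 and 4691. The maternal over paternal ratio was 0.931 in replicate 1 and 0.970 in replicate 2, while the median window had 1.04 and 1.06. In both replicates together 61 of 62 windows had a higher ratio. The ratio of all maternal to paternal read ends of the locus was also low, 0.957 and 0.995 in replicates 1 and 2, and after division by its square the cis ratio was 0.996. The part of the number of variants and of mapping in this ratio was not tested.

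**Figure D4:**
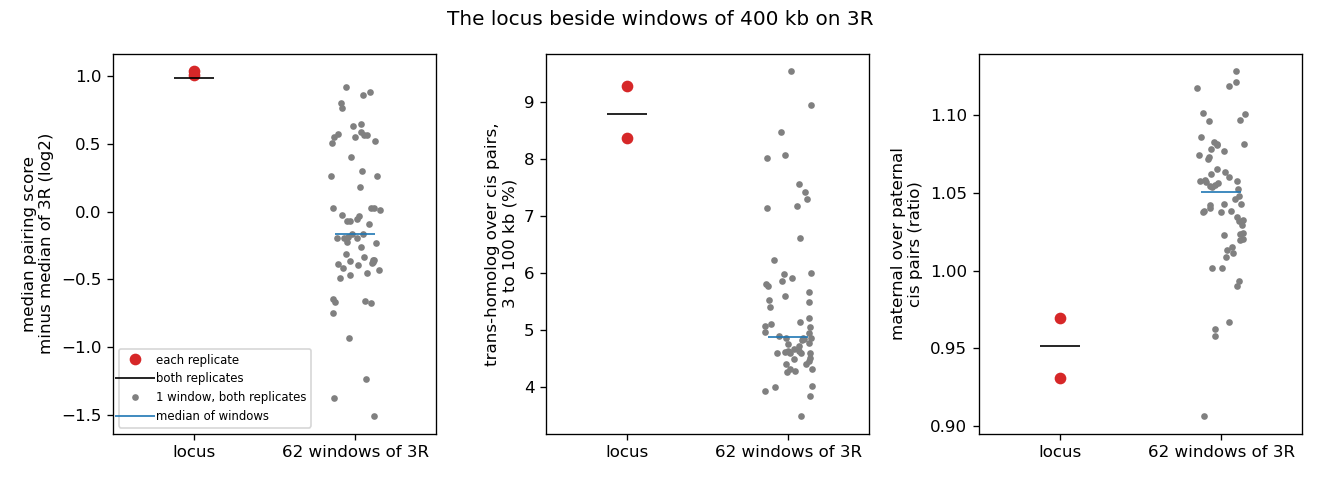
The locus beside 62 windows of 400 kb on 3R for the median pairing score minus the median of 3R (log2, left), the trans-homolog over cis share of pairs at 3 to 100 kb (percent, middle) and the maternal over paternal ratio of cis pairs (right). Red points are the 2 replicates of the locus, black bars both replicates pooled, grey points single windows with both replicates pooled and blue bars their medians. The locus has the highest pairing score, the third highest share and the second lowest ratio.

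Contacts with the bithorax complex, 3R from 12482502 to 12797965, were set against 38 other pairs of windows of the same sizes and separation on 3R, scaled by the read ends of each window. The 3 Hox genes of that complex are Ubx, abd-A and Abd-B. Trans-homolog pairs between the complexes numbered 33 in replicate 1 and 27 in replicate 2, or 2.92 and 2.07 times the expected number. Cis pairs numbered 45 in replicate 1 and 82 in replicate 2, or 2.27 and 3.17 times the expected number. No other pair of windows on 3R had a higher ratio of either kind in either replicate, although the next highest cis ratio in replicate 1 was 2.26. The ratios were 2.46 for 60 trans-homolog pairs and 2.78 for 127 cis pairs in all, with exact Poisson limits at 95% of 1.88 to 3.17 and 2.32 to 3.31, which cover counting error only. Among the other pairs, cis ratios tended to fall along the arm, between 2.07 from 5650001 and 0.62 from 12850001. The pairs just left and right of the locus had cis ratios of 1.33 and 1.57 and trans-homolog ratios of 1.44 and 1.05. The excess over expected therefore depends on which pairs are averaged, and the part of arm position was not tested.

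**Figure D5:**
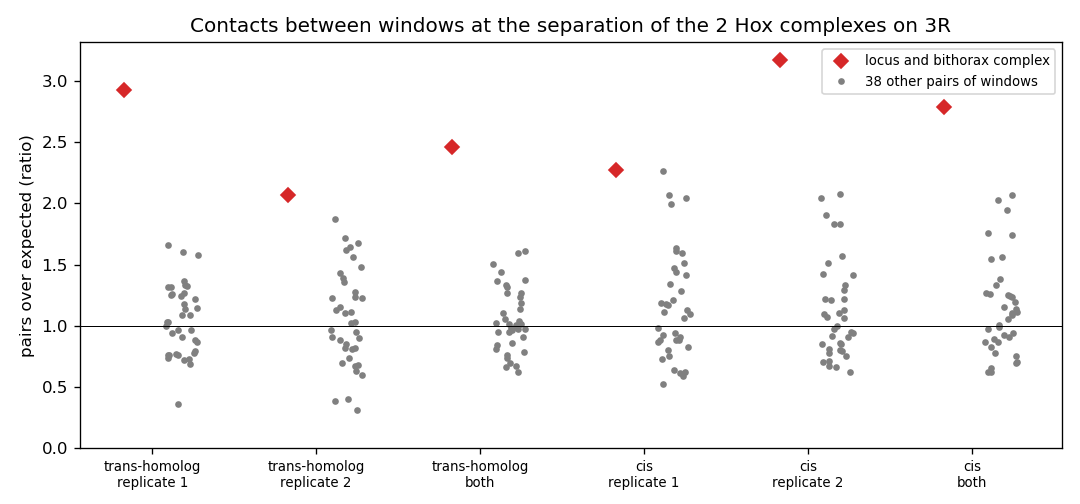
Pairs over expected for the locus and the bithorax complex (red diamonds) and for 38 other pairs of windows of 3R at the same separation (grey points), for trans-homolog contacts (left) and cis contacts (right) by replicate and with both replicates pooled. The line marks a ratio of 1. Each red diamond lies above the grey points beside it, by a very small margin for cis contacts in replicate 1.

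Against pairs of windows at this separation on all 5 large arms, the ratios were 2.68 for trans-homolog and 3.02 for cis contacts, and 7 of 156 other pairs were higher for each. The locus thus did not rank highest among all arms. On 3R, 3 of the 38 other pairs had a higher cis ratio when both ends had to map with a quality of 30 or more, which left 11 cis pairs. Split by homolog, cis contacts were 3.01 ± 0.55 times the expected on the maternal and 2.40 ± 0.72 times on the paternal homolog (SD, n = 2). Trans-homolog contacts of the maternal Antennapedia with the paternal bithorax complex were 2.99 ± 0.42 times the expected, and the reverse combination was 2.04 ± 0.79 times. The ratios of the 4 combinations overlap within these spreads. The paternal cis ratio in replicate 1 had 4 window pairs above it, and the paternal Antennapedia with maternal bithorax ratio in replicate 2 had 10.

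Seen from the locus, 187 pairs, cis and trans-homolog together, reached the bithorax complex 9.63 Mb away, or 2.39 pairs per 1000 read ends of that interval. The median over 71 other intervals of the same length beyond 2 Mb was 0.659, but values tended to fall with distance. The intervals next to the bithorax complex had 1.75 on the side of the locus and 0.956 on the far side. There were 9 intervals with a higher value, and the farthest of them lay 5.22 Mb from the locus. The 60 other intervals beyond that distance were lower by definition, since the distance was read from the 9 higher intervals. The pairs were spread thinly, over 128 of 320 pixels of 20 kb, and no pixel held more than 4.

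The pixels with 4 pairs joined 2650001 to 2670000 with 12722502 to 12742501 and 2690001 to 2710000 with 12662502 to 12682501, both in domain 3. The other 3 of the 5 pixels with most pairs held 3 pairs each, which cannot be told from many others at this depth. Summed over domains, domain 4 had 5.84 and 5.20 and domain 3 had 4.40 and 3.75 pairs with the bithorax complex per 1000 read ends in replicates 1 and 2. Domain 1 had 1.28 and 2.79, domain 2 had 1.99 and 3.45, and the part of domain 5 in the locus had 3.22 and 2.67. Domains 3 and 4 were thus above domains 1, 2 and 5 in both replicates, but partly within counting error. With both replicates pooled, exact Poisson limits were 3.12 to 5.17 for domain 3 and 3.73 to 7.79 for domain 4. They were 1.49 to 2.86 for domain 1, 1.87 to 3.96 for domain 2 and 1.60 to 4.90 for domain 5. Only the limits of domain 1 lay below those of domains 3 and 4, and domain 4 rests on 31 pairs.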

How the data were processed

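Hi-C read pairs of 2 replicates were used. Per the file headers and the labels, the authors aligned reads with BWA 0.7.15 to a diploid genome built on dm3 and removed duplicates. Mapping qualities in the deposited pairs are an aligner score between 1 and 60 for either end, and the deposited positions were counted as they stand. Contacts of at least 3 kb were binned at 1, 4 and 5 kb over 5 arms, bins under a MADmax of 7 or with fewer than 10 read ends per replicate were masked, and maps were corrected iteratively to a relative variance of 1e-05. The minimum of read ends was set after the data were seen, since the 1 kb correction did not converge without it, and alternatives to it were compared with the boundary counts in view. Boundaries were insulation minima of prominence 0.3 or more, dropped next to masked bins. Windows of 3R with at least 80% visible bins were kept, 62 of 68. With 1 condition and 2 replicates no test was run; values are given per replicate or as mean ± SD, and ranks among windows are descriptions. Per-sample precision is limited by the depth of the replicates, 24390496 and 24659056 pairs. The interval, the gene list and the measures were chosen with earlier results of these data known. The named places are every called boundary, the domains, the extreme pairing score bins and the 5 leading pixels; the domains were drawn in 4 kb bins and raised pixels were ranked by ratio. Motifs in promoters were not analysed here. Alternatives changed the replicates, mapping quality, bins, windows, thresholds and correction. The calling of boundaries and the expected values by separation were tested on simulated data, and the other measures were not. Scripts ran in Python 3.11.15 with scipy 1.17.1 and numpy 2.4.6, and plots were drawn with matplotlib 3.10.9.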

Additional observations from a re-analysis of the deposited data

How the results depend on the processing

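No paired analysis was possible because the replicates belong to 1 group. Leaving out 1 replicate left 4 to 8 cis boundaries in 1 kb bins (5 with both), 8 to 9 trans-homolog boundaries (6 with both), a cis ratio of 1.18 at 10 to 30 kb, a pairing score 1.01 to 1.03 above 3R (0.99 with both), 2.27 to 3.17 times the expected cis contacts and 2.07 to 2.92 times the expected trans-homolog contacts with the bithorax complex. The count of cis boundaries was 10 with a prominence of at least 0.1, 10 with a window of 10 kb and 2 with a window of 40 kb. Among maskings added after the data were seen, it was 8 with at least 10 read ends per bin, 9 with minima next to masked bins kept, 10 with both and 18 with no minimum.

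Without iterative correction the cis ratio fell below 1, to 0.833 at 10 to 30 kb and 0.850 at 3 to 10 kb, and the pairing score stood 0.74 above 3R. At 10 to 30 kb the cis ratio was 1.14 in 4 kb bins, 1.1 with the 5 arms as reference and 1.2 with the locus widened by 50 kb. At 30 to 100 kb it moved above 1, to 1.01 in 4 kb bins and 1.01 with the locus widened. Contacts of at least 10 kb gave 45.9% of partners inside the locus and a pairing score 1.14 above 3R, and W = 1 gave 0.82. The trans-homolog over cis share was 7.48% at 3 to 30 kb and 10.4% at 10 to 100 kb. The maternal over paternal ratio was 0.996 after division by the squared ratio of read ends. A window of 5 bins gave 14 trans-homolog boundaries. Raised pixels numbered 42 at a threshold of 1.5 and 5 in pixels of 10 kb. The causes were not tested.

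Requiring both ends to map with a quality of 30 or more kept 8.13% of the read ends of the locus and left 11.2% of its 1 kb bins visible, so its values rest on few pairs. It gave 0 cis and 0 trans-homolog boundaries, 1 raised pixel, cis ratios of 3.55 at 10 to 30 kb, 3.17 at 30 to 100 kb and 2.79 at 100 to 400 kb, 50.5% of partners inside, a maternal over paternal ratio of 0.984, a trans-homolog over cis share of 8.07%, misassignment of 0.0317%, a pairing score 1.12 above 3R with 2 of 61 windows higher, and 3.62 times the expected cis and 5.16 times the expected trans-homolog contacts with the bithorax complex, from 11 and 10 pairs, with 3 and 0 of 38 window pairs higher.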
